A study of Mus with 4 samples.

Results

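Expression of 10 genes of fatty acid oxidation was examined in hearts of newborn mice at postnatal day 0 (P0). The genes were *Cpt1a*, *Cpt1b*, *Acadm*, *Acadl*, *Acadvl*, *Hadha*, *Hadhb*, *Fabp3*, *Pdk4* and *Ppargc1a*, and they were found by Ensembl identifier among the 55487 gene IDs of the deposited table. The labels divide the 4 RNA-Seq libraries into WT and miR-187, with 2 replicates each. Per the study's methods, the miR-187–knockin (KI) mice carried mouse miR-187 at the *Rosa26* site on a C57BL/6J background, where a *Tek* (*Tie2*) promoter restricts it to endothelial cells. The RNA-Seq animals were KI/KI and WT neonates. These methods name cardiac endothelial cells as the source of the RNA, and elsewhere describe their isolation from mouse hearts with CD31 MicroBeads, a sort that would remove most cardiomyocytes. The labels name heart tissue, and their wording is used here, but which cells the RNA came from was not tested. Neither source says whether each library came from a single pup or from a separate litter, so p-values measure only the spread between these libraries.

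Long-chain fatty acids are carried through the cytosol of muscle cells by fatty acid–binding proteins, passed into mitochondria by way of carnitine esters, and shortened in the matrix by repeated cycles of β-oxidation. The fetal heart lives mainly on glucose and lactate, and the genes of this route are known to increase around and after birth, when milk fat becomes the main fuel. Nuclear receptors of the PPAR and ERR families, with the coactivator encoded by *Ppargc1a*, drive many of them. The comparison shows how these transcripts stood in hearts of both genotypes.

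Values are the authors' FPKM (sequenced fragments scaled to transcript length and to the mapped total of the library), which can be compared between genes. Each of the 10 genes had a value above 0 in every library, and all 10 passed the filter for testing, a mean of at least 1 FPKM. The libraries themselves differed. Their FPKM sums ran from 750826 to 807359, and the single most abundant ID took 18.5% (WT replicate 1), 4.45% (WT replicate 2), 21.0% (miR-187 replicate 1) and 3.03% (miR-187 replicate 2) of them. Such an ID lowers the FPKM of all others in its library, so results are also given after rescaling to the sum without the 10 most abundant IDs. One further ID, ENSMUSG00000038791.14, had 3297 FPKM in miR-187 replicate 2 and under 1 FPKM elsewhere, and its part in the results was not tested. Read depth is unknown, and markers of cell types, the level of miR-187 and that of its target *Nipbl* were not analysed here.

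The levels of the 10 genes spanned a wide range. *Fabp3* was far above the rest, with a mean of 2292 FPKM over the 4 libraries, and ranked between 27th and 40th of all IDs in each library. *Acadl* followed with 122.7 FPKM, then *Acadm* with 69.5, *Acadvl* with 66.8, *Hadhb* with 56.0, *Hadha* with 28.3 and *Cpt1b* with 20.4 FPKM. *Pdk4*, *Cpt1a* and *Ppargc1a* were lowest, with means of 5.92, 5.26 and 3.91 FPKM. The ranges of neighbours in this order were separate between *Fabp3* and *Acadl* and between *Hadhb* and *Hadha*. *Acadm* and *Acadvl* changed places between libraries, with *Acadm* the higher in 2 of 4, and *Pdk4* exceeded *Cpt1a* in 1 library of 4.

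**Figure D1:**
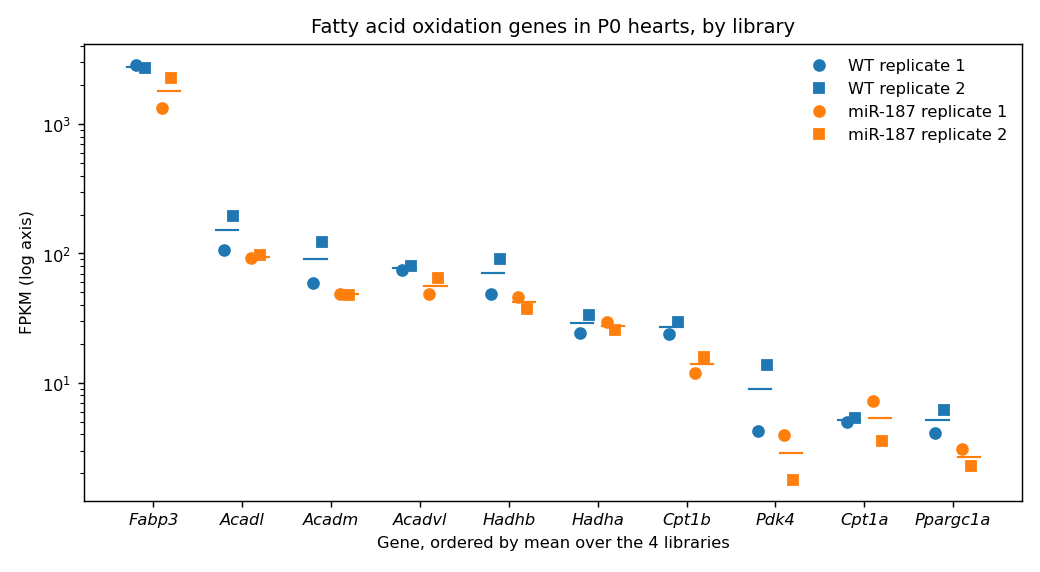
FPKM of the 10 genes (log axis) in each library, with circles for replicate 1, squares for replicate 2, blue for WT, orange for miR-187, and short lines for the group means. Both orange points sit below both blue points for 8 genes, and the groups overlap for *Hadha* and *Cpt1a*.

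Both miR-187 libraries lay below both WT libraries for 8 of the 10 genes, whereas this held for 13.2% of the 14325 genes tested. None of the 10 had both miR-187 libraries above both WT libraries, against 12.3% of tested genes. The genes with separate groups were *Fabp3*, *Cpt1b*, *Acadm*, *Acadl*, *Acadvl*, *Hadhb*, *Pdk4* and *Ppargc1a*. The lowest WT value was 1.05 times the highest miR-187 value for *Hadhb*, 1.07 for *Pdk4* and 1.10 for *Acadl*, up to 1.51 for *Cpt1b*. The 10 genes were chosen with earlier results of these data known, and many share regulators. They are thus not independent draws from the tested genes, and the shares are a description. On the log2(FPKM + 1) scale the median difference of the 10 genes, miR-187 minus WT, was -0.67, beside -0.04 over all tested genes and -0.03 over the 3737 tested genes that averaged 10 FPKM or more. Among those abundant genes, 13.3% had both miR-187 libraries below both WT libraries and 14.1% had both above. In bulk RNA, fewer cells of a type and less RNA per cell cannot be told apart.

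No single gene of the 10 passed the test. In limma with Benjamini-Hochberg adjustment, 1 of all tested genes (0.00698%) passed 0.05 with lower values in miR-187, and 0 passed with higher values. Before adjustment, 189 genes (1.32%) were higher and 258 (1.80%) lower at a p under 0.05. The lower ones included 2 of the 10, *Pdk4* and *Cpt1b*. This count was 5 without WT replicate 1, beside 4.78% of tested genes in that fit, and 0 without WT replicate 2, beside 2.11%. It was 1 with the replicate block (2.09%) and without a filter (1.46%). It was 3 with TMM factors (trimmed mean of M-values, 1.43%), quantile normalization (1.65%), median centring (1.34%) and the pseudocount of 0.1 (1.83%). The adjusted p of all 10 genes was 0.9997 (limma). The group difference exceeded the gap between replicates in both groups for 3 genes, *Cpt1b*, *Acadvl* and *Ppargc1a*, and 14.4% of tested genes did so in either direction. For the other 7 the difference was within the spread of at least 1 pair of replicates.

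**Figure D2:**
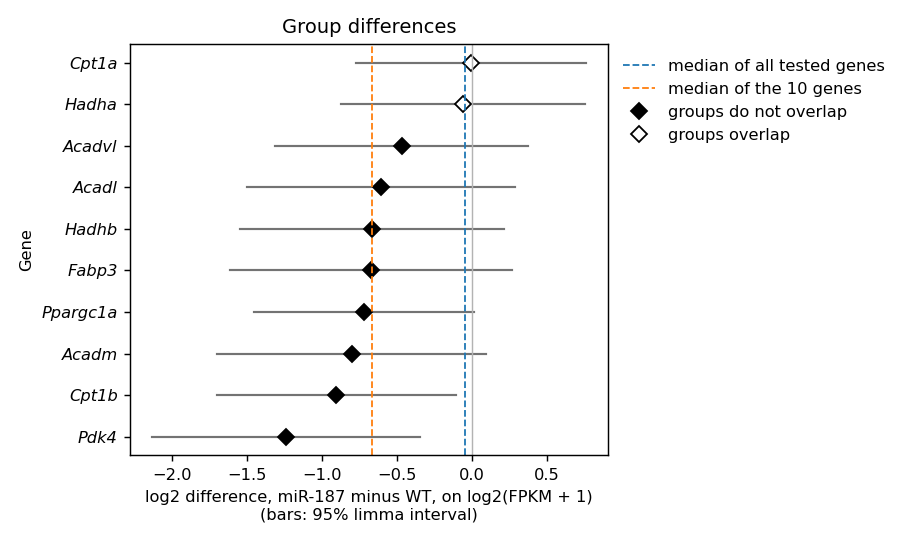
log2 difference between the groups (miR-187 minus WT, x axis) for each gene, with the 95% limma interval as a bar. Filled diamonds are genes whose groups do not overlap. The differences run from -1.24 (*Pdk4*) to -0.00 (*Cpt1a*), and the intervals of *Pdk4* and *Cpt1b* lie below 0.

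The fatty acid carrier came first by level. *Fabp3* (ENSMUSG00000028773.8; chromosome 4, 130308738 to 130315463) encodes the heart-type fatty acid–binding protein of muscle cytosol. WT replicates 1 and 2 held 2873 and 2691 FPKM of it, and the respective miR-187 libraries 1342 and 2262 FPKM. Pairs of values below follow the same order. The WT libraries were close together, and miR-187 replicate 1 was the low library. The WT mean was 2782 ± 129 FPKM and the miR-187 mean 1802 ± 650 FPKM (SD, n = 2 each), or 64.8% of WT. On the log2 scale the groups differed by -0.67 (standard error 0.45, 95% interval -1.61 to 0.26). It was -0.30 without miR-187 replicate 1 and -1.05 without miR-187 replicate 2. The gene overlaps *Zcchc17* in the annotation, and reads of the overlap could have gone to either gene.

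Import into mitochondria depends on carnitine palmitoyltransferase 1, the rate-controlling step of the route. *Cpt1b* encodes the muscle form and *Cpt1a* the liver form, which the fetal heart also uses. *Cpt1b* (ENSMUSG00000078937.8; chromosome 15, 89416405 to 89425862) was measured at 24.0 and 29.7 FPKM in the WT libraries, and at 12.0 and 15.9 FPKM in the miR-187 libraries. From the higher miR-187 value to the lower WT value there was a gap of 1.51 times, the widest among the 10 genes. By rank among all IDs, which does not depend on the scaling of a library, *Cpt1b* stood at 1712 and 1736 in WT and at 3274 and 2537 in miR-187. Its means were 26.9 ± 4.07 and 13.9 ± 2.77 FPKM (SD, n = 2 each), a log2 difference of -0.91 (standard error 0.38, 95% interval -1.70 to -0.11). The unadjusted limma p was 0.0278. Of the tested genes, 1.26% had a difference at or below this one. The annotation places the long noncoding RNA *Gm44502* over the same locus, and the setting for strand was not given in the sources used here.

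*Cpt1a* (ENSMUSG00000024900.5; chromosome 19, 3322326 to 3385735) gave another picture. WT hearts held 4.95 and 5.32 FPKM of this transcript, miR-187 hearts 7.22 and 3.55 FPKM. The miR-187 libraries lay on either side of WT, and the log2 difference was -0.00 with a 95% interval of -0.77 to 0.76, which turned positive under each scaling alternative (0.02 to 0.08). Both forms together summed to 28.9 and 35.1 FPKM (WT) and to 19.2 and 19.4 FPKM (miR-187). The muscle form prevailed in each library. The ratio of *Cpt1b* to *Cpt1a* was 4.84 and 5.59 in WT, and 1.66 and 4.47 in miR-187. This ratio within a library is free of its scaling. Its log2 difference between groups was taken on FPKM + 1, and so is not fully free of scaling. This difference was -0.90, against a replicate SD of 0.15 in WT and 0.87 in miR-187. It was -0.93 with a pseudocount of 0.1. It was -0.28 without miR-187 replicate 1 and -1.52 without miR-187 replicate 2.

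**Figure D3:**
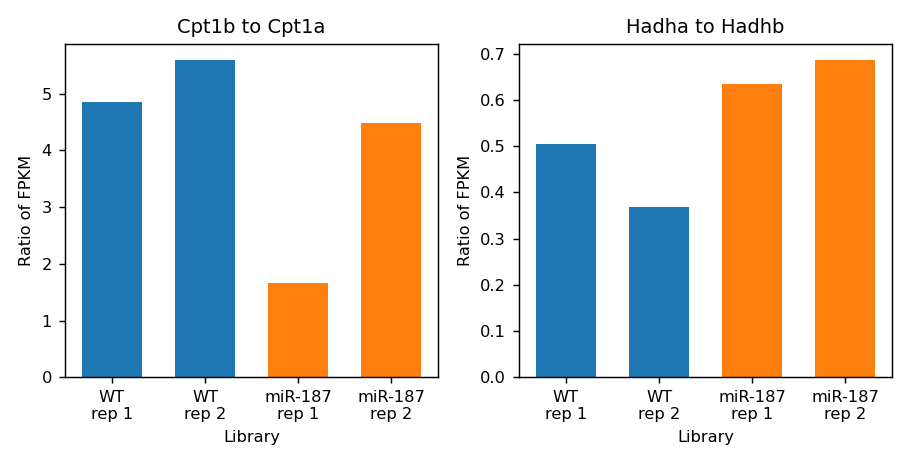
Ratios of FPKM within each library for the muscle and liver forms of carnitine palmitoyltransferase 1 (*Cpt1b* to *Cpt1a*, left) and for the subunits of the trifunctional protein (*Hadha* to *Hadhb*, right). Bars are single libraries, blue for WT and orange for miR-187. *Cpt1b* to *Cpt1a* is lowest in miR-187 replicate 1 (1.66), and *Hadha* to *Hadhb* is higher in both miR-187 libraries (0.635 and 0.686) than in WT (0.503 and 0.368).

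The acyl-CoA dehydrogenases carry out the first step of each β-oxidation cycle and differ in the chain length they accept. All 3 genes measured here had lower values in miR-187. *Acadvl* (ENSMUSG00000018574.14; chromosome 11, 70010183 to 70015428) encodes the enzyme for very long chains. Its level was 74.8 and 79.9 FPKM in the WT libraries against 48.2 and 64.1 FPKM in the miR-187 libraries, with a log2 difference of -0.47 and a 95% interval of -1.31 to 0.38. The WT replicates were alike, and both miR-187 libraries were below them. Without miR-187 replicate 1 the log2 difference was -0.27.

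*Acadl* (ENSMUSG00000026003.5; chromosome 1, 66830839 to 66863309), for long chains, stood at 106.6 and 195.4 FPKM in WT hearts and at 92.0 and 96.9 FPKM in miR-187 hearts. *Acadm* (ENSMUSG00000062908.12; chromosome 3, 153922353 to 153944643), for medium chains, stood at 58.7 and 122.9 FPKM in WT hearts and at 48.7 and 47.8 FPKM in miR-187 hearts. For both genes the miR-187 libraries were close together and WT replicate 2 stood high. WT replicate 2 was 1.83 times WT replicate 1 for *Acadl* and 2.09 times for *Acadm*. The log2 differences were -0.61 (95% interval, -1.5 to 0.29) and -0.80 (-1.70 to 0.09). Without WT replicate 2 they were -0.17 and -0.28, and without WT replicate 1 they were -1.04 and -1.33. The ratio of *Acadl* to *Acadm* was 1.82 and 1.59 in WT hearts and 1.89 and 2.02 in miR-187 hearts, with groups that did not overlap. On the log2(FPKM + 1) scale it differed by 0.20, against a replicate SD of 0.13 in WT and 0.07 in miR-187. The ratio of *Acadm* to *Acadvl* ran from 0.747 to 1.54 with overlapping groups. The 3 dehydrogenases together summed to 240.1 and 398.2 FPKM (WT) and to 188.9 and 208.8 FPKM (miR-187).

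The mitochondrial trifunctional protein performs the later steps of the cycle on long chains, with its α subunit encoded by *Hadha* and its β subunit by *Hadhb*. These genes are neighbours on chromosome 5 (*Hadha*, ENSMUSG00000025745.12, 30119423 to 30154980; *Hadhb*, ENSMUSG00000059447.13, 30155253 to 30184593), with 272 bases between them. *Hadhb* levels were 48.7 and 91.4 FPKM in the WT libraries, against 46.3 and 37.4 FPKM in the miR-187 libraries. miR-187 replicate 1 was close below WT replicate 1, miR-187 replicate 2 was lower, and WT replicate 2 was the high library. The log2 difference of -0.67 (95% interval, -1.55 to 0.21) was -0.22 without WT replicate 2 and -1.12 without WT replicate 1. *Hadha* levels were 24.5 and 33.6 FPKM in the WT libraries, against 29.4 and 25.7 FPKM in the miR-187 libraries, with a log2 difference of -0.06 (-0.87 to 0.75) and groups that overlapped. That difference was 0.03 after rescaling without the 10 most abundant IDs.

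Although their products form a single complex, the transcripts of both subunits did not keep a fixed proportion. The ratio of *Hadha* to *Hadhb* was 0.503 and 0.368 in WT and 0.635 and 0.686 in miR-187. On the log2(FPKM + 1) scale it was higher in miR-187 by 0.61, against a replicate SD of 0.32 in WT and 0.08 in miR-187. The difference was 0.38 without WT replicate 2. The ratios are given as a description, without a test.

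*Pdk4* and *Ppargc1a* act on the choice of fuel and on the supply of oxidative enzymes. *Pdk4* (ENSMUSG00000019577.6; chromosome 6, 5483351 to 5496278) encodes a kinase that shuts off pyruvate dehydrogenase and so spares glucose while fat is burned. WT hearts held 4.26 and 13.7 FPKM of it, miR-187 hearts 3.98 and 1.78 FPKM. This gene varied most between replicates. WT replicate 2 was 3.20 times WT replicate 1, and miR-187 replicate 2 was 0.446 times miR-187 replicate 1. WT replicate 1 and miR-187 replicate 1 nearly coincided. Its log2 difference of -1.24 (standard error 0.43, 95% interval -2.14 to -0.35) had an unadjusted limma p of 0.00885, and 0.279% of tested genes had a difference at or below it. It was -0.50 without WT replicate 2, -0.82 without miR-187 replicate 2, -1.98 without WT replicate 1 and -1.66 without miR-187 replicate 1. The limma adjusted p was 0.0178 in the fit without WT replicate 1 and 0.0141 in that without miR-187 replicate 1, within a range of 0.0141 to 1.00 over all alternatives. In both of these fits limma used a spread pooled over genes, so the replicate gaps of *Pdk4* itself did not enter.

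*Ppargc1a* (ENSMUSG00000029167.13; chromosome 5, 51454249 to 52115853) encodes PGC-1α, the coactivator that promotes mitochondrial and fatty acid oxidation genes. WT hearts held 4.07 and 6.18 FPKM of it, miR-187 hearts 3.11 and 2.27 FPKM. The group means were 5.13 ± 1.49 and 2.69 ± 0.592 FPKM (SD, n = 2 each). The log2 difference of -0.72 (95% interval, -1.45 to 0.01) was larger than both replicate gaps, and it was -0.47 without WT replicate 2. In rank among all IDs it stood at 6922 and 5477 in WT and at 8571 and 9081 in miR-187. At these levels the added 1 FPKM reduces the log2 difference of *Ppargc1a* and *Pdk4* more than that of the abundant genes.

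The genes were then viewed by library. WT replicate 2 held the highest value of 8 of the 10 genes and was above the gene's own mean for all 10. Its median deviation from the 4-library mean was 0.61 on the log2 scale. WT replicate 1 was near the middle, with a median deviation of -0.08, and the miR-187 libraries had -0.27 and -0.34. Between the WT replicates, 9 of the 10 genes were higher in replicate 2, *Fabp3* being the exception, as were 52.8% of all tested genes and 74.1% of those that averaged 10 FPKM or more. The miR-187 libraries differed in which genes were low. *Fabp3*, *Cpt1b*, *Acadvl* and *Acadl* were lowest in miR-187 replicate 1, and *Pdk4*, *Ppargc1a*, *Cpt1a*, *Hadhb* and *Acadm* in miR-187 replicate 2. *Hadha* was lowest in WT replicate 1.

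**Figure D4:**
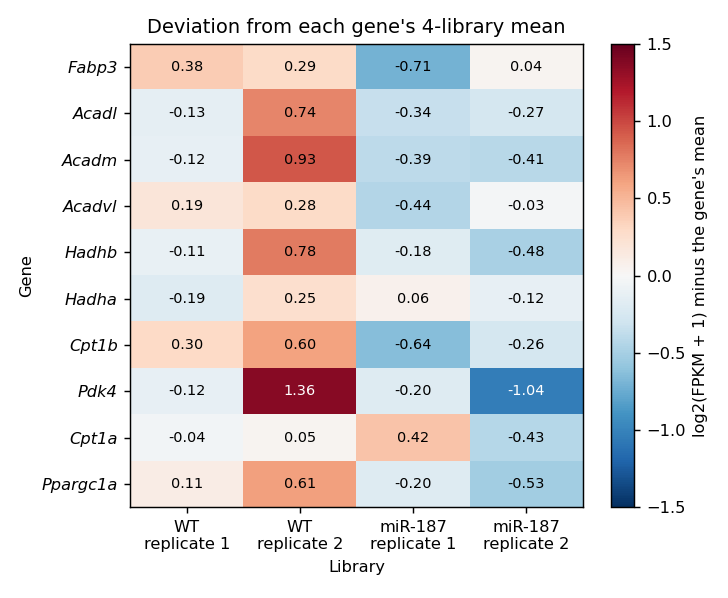
Deviation of each gene (rows) in each library (columns) from its mean over the 4 libraries, on the log2(FPKM + 1) scale, in red above and blue below. WT replicate 2 is above the mean for every gene, from 0.05 (*Cpt1a*) to 1.36 (*Pdk4*), and miR-187 replicate 1 is below it except for *Hadha* (0.06) and *Cpt1a* (0.42).

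The size of the difference depended on both WT libraries. The median log2 difference of the 10 genes, -0.67 with all libraries, was -1.01 without WT replicate 1 and -0.35 without WT replicate 2. Without miR-187 replicate 1 or replicate 2 it was -0.64 or -0.66.

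The libraries were also scaled in other ways. After rescaling to the sum without the 10 most abundant IDs, both miR-187 libraries were below both WT libraries for 6 genes, with *Hadhb* and *Pdk4* no longer separate, beside 8.58% of tested genes. The median log2 difference was then -0.58, beside 0.03 over all tested genes. On the same basis the 10 genes held 0.724% and 0.642% of the remaining sum in WT and 0.394% and 0.531% in miR-187, a sum made up mostly of *Fabp3*. The other 9 held 0.0788% and 0.114% in WT and 0.0701% and 0.0614% in miR-187. TMM factors left 7 genes with separate groups, beside 12.7% of tested genes, and quantile normalization 7, beside 13.7%. With quantile normalization the groups of *Fabp3* overlapped and its log2 difference was -0.34. Median centring left 8, beside 12.8%. The genes that stayed separate under each scaling were *Cpt1b*, *Acadm*, *Acadvl* and *Ppargc1a*.

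**Figure D5:**
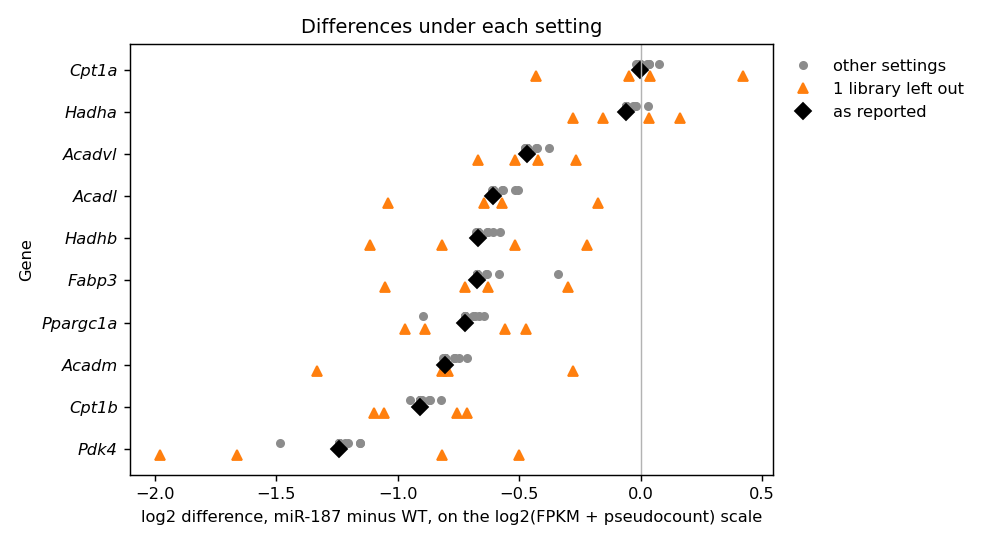
log2 difference (miR-187 minus WT, x axis) of each gene as reported (black diamonds), with 1 library left out (orange triangles) and under the other settings (grey circles). For 8 genes each point lies below 0, and for *Cpt1a* and *Hadha* the points lie on both sides of it. Leaving out a library moves most genes further than any other setting.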

How the data were processed

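RNA-Seq was made from RNA of P0 mice labelled as heart, while the study's methods name cardiac endothelial cells. There were 2 WT and 2 miR-187 libraries (mRNA libraries, paired-end, Illumina NovaSeq, per the labels). The authors deposited 1 table of FPKM per library and gene ID. The submitters' processing notes name HISAT2, StringTie, DESeq2 and build mm10. Annotation and strand setting are not given in the sources used here. The FPKM values were not in whole-read steps, so counts were not recovered and depth is unknown. FPKM divides by each library's mapped total, so abundant transcripts lower the rest.

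The 10 genes and the other lists were chosen with earlier results of these data known. The 10 genes were matched by ID with the version dropped. Positions and overlaps come from a RefSeq table (GRCm38.p6, the build of mm10), in which all 10 were found by symbol. This table holds 0 Ensembl IDs, so the further pathway genes, cell type markers and genes of like pattern fixed by symbol were not analysed here, and only the 10 genes are named with values. Sequences of transcripts, promoters and proteins were not used here.

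Values were taken as log2(FPKM + 1). The 14325 IDs that averaged 1 FPKM or more were fitted in limma 3.58.1 under R 4.3.3 (trend, two-sided, Benjamini-Hochberg adjustment over all of them, threshold 0.05). The fit was run on simulated data. The recovery required there concerned only differences larger than those of the 10 genes. It therefore does not establish the power of the test at the sizes seen here. Differences on this scale understate the change of low genes. No replicate block was used. Alternatives included a smaller pseudocount (0.1), other filters (0.1 FPKM, 5 FPKM or none), 4 scalings (median centring, TMM factors, quantile normalization, and the sum without the 10 most abundant IDs), eBayes untrended or robust, a replicate block, and fits that omit 1 library. In the latter, the lone library was assumed to vary like the others, and limma pooled the spread over genes (infinite prior degrees of freedom). The same pooling occurred with the 0.1 FPKM filter, the replicate block and the sum without the 10 most abundant IDs. The count of genes with separate groups under each alternative, and the test with 3 libraries, were added after seeing the data. Figures were drawn with matplotlib 3.10.9.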

Additional observations from a re-analysis of the deposited data

How the results depend on the processing

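Of 149 values of the 10 genes' log2 differences under alternatives, 138 kept their direction and stayed above the threshold. *Pdk4* gained an adjusted p under 0.05 in 2, both with 1 library left out and with infinite prior degrees of freedom in limma, so that a gene's own spread did not enter. The number of the 10 genes called lower thus ran from 0 to 1 with 1 library left out. Direction turned in 9, all for *Cpt1a* and *Hadha*. *Cpt1a* was 0.0327 with median centring, 0.0245 with TMM factors, 0.0325 with quantile normalization, 0.0774 after rescaling without the 10 most abundant IDs, and -0.43 to 0.42 with 1 library left out. *Hadha* was 0.0292 after that rescaling and -0.28 to 0.16 with 1 library left out.

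Over all tested genes, the counts of 0 higher and 1 lower were 31 and 15 with a minimum mean of 0.1 FPKM, 28 and 11 after rescaling without the 10 most abundant IDs, 4 and 2 with robust eBayes, and 33 and 18 with the replicate block. The lower count was 0 with a minimum mean of 5 FPKM, 0 without a filter and 0 with quantile normalization. With 1 library left out, counts ran from 10 to 60 higher and from 14 to 55 lower. Prior degrees of freedom in limma were 19.5 in the main fit and 79.8 with robust eBayes. They were infinite with the minimum mean of 0.1 FPKM, that rescaling, the replicate block and 1 library left out. In those fits a gene's own spread did not enter the test. The remaining settings had 2.66 to 19.3. What changed the counts was not tested. The replicate block changed no call among the 10 genes. Across genes, the departures of equally numbered libraries from the group means had r = -0.0675. The most abundant ID took 18.5% (WT) and 21.0% (miR-187) of the sum in the replicate 1 libraries. In the replicate 2 libraries it took 4.45% and 3.03%, and the reason was not tested. The labels attach no litter or batch to a number, and pairing was therefore not assumed. *Ppargc1a* falls under the minimum mean of 5 FPKM and has no value there. FPKM carry no depth, so no detection limit can be given.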
